A study of Mus musculus with 6 samples.

Results

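The genes described here are 44 that encode proteins of nucleolar ribosome biogenesis, the making of ribosome subunits from ribosomal RNA and protein. They were given as a list of symbols, and each was looked up in the deposited table by the Ensembl identifier that GENCODE M21 pairs with its symbol. All 44 were among the 14864 genes of the table, and all 44 were among the 14855 genes tested. Marginal zone B cells, which sit in the spleen where blood enters around the follicles, were flow-sorted from C57BL/6 mice of 8 weeks. Libraries labelled wild type (WT, 3) were compared with libraries labelled CK2α conditional knockout (cKO, 3). CK2α, which Csnk2a1 encodes, is a catalytic subunit of the kinase CK2. The libraries held 18778776 to 23503756 reads in genes, with cKO replicate 1 the deepest. The Cre line, the deleted part of the gene, and whether each library came from its own mouse were not given in the sources used here. The p-values therefore measure only how these libraries vary, and that variation may be technical. Csnk2a1 itself stood at 3861 to 4069 normalised reads in WT and 3951 to 4124 in cKO, so its gene-level value did not separate the groups, and directions below are those of the libraries as labelled.

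Ribosomes begin in the nucleolus, where RNA polymerase I copies the ribosomal DNA into a long precursor. Small nucleolar ribonucleoproteins then guide its chemical modification, box C/D particles by methylation and box H/ACA particles by pseudouridylation, while the small subunit processome and the large subunit assembly factors fold and cleave it. Resting B cells keep small nucleoli, which enlarge when the cells are activated. Nucleophosmin, nucleolin, Nopp140 (the product of Nolc1) and treacle (the product of Tcof1) are long-known substrates of CK2. These are facts about the proteins, and the values below are of RNA.

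Of the 44 genes, 5 rose in cKO and 0 fell by limma at an adjusted p under 0.05. The 5 were Npm1, Ncl, Nop58, Nop10 and Wdr12. Across all genes tested 10.1% were called, with 5.08% higher and 4.97% lower, so 11.4% of the 44 genes is close to the share called in either direction and above the share called higher. All 44 genes were well expressed, with means of 609 to 16388 normalised reads. Of the 6763 genes with a mean of at least 500, 13.7% were called and 6.71% were called higher. The changes were small. The median log2 difference over the 44 genes was 0.096 (differences are given as cKO less WT, after 1 was added to each value and log2 was taken), which is 6.88%, against -0.00086 over all genes tested. The differences ran from -0.15 for Tcof1 to 0.34 for Nop10. Differences above 0 were found for 33 of the 44 genes, while 49.8% of all genes tested and 52.8% of those with a mean of at least 500 had one. The groups did not overlap, with cKO higher, for 12 of the 44 genes, or 27.3%, against 15.9% of all genes tested. With cKO lower this held for 0, against 15.6%. Of the 6763 genes with a mean of at least 500, the groups did not overlap for 20.4% with cKO higher and for 1191 genes with cKO lower. An unadjusted p under 0.05 by limma was reached by 15 of the 44 genes, all with a positive difference. It was reached by 3983 of the 14855 genes tested, 2007 of them higher. Of the 6763 genes with a mean of at least 500, it was reached by 2250, 1189 of them higher.

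**Figure D1:**
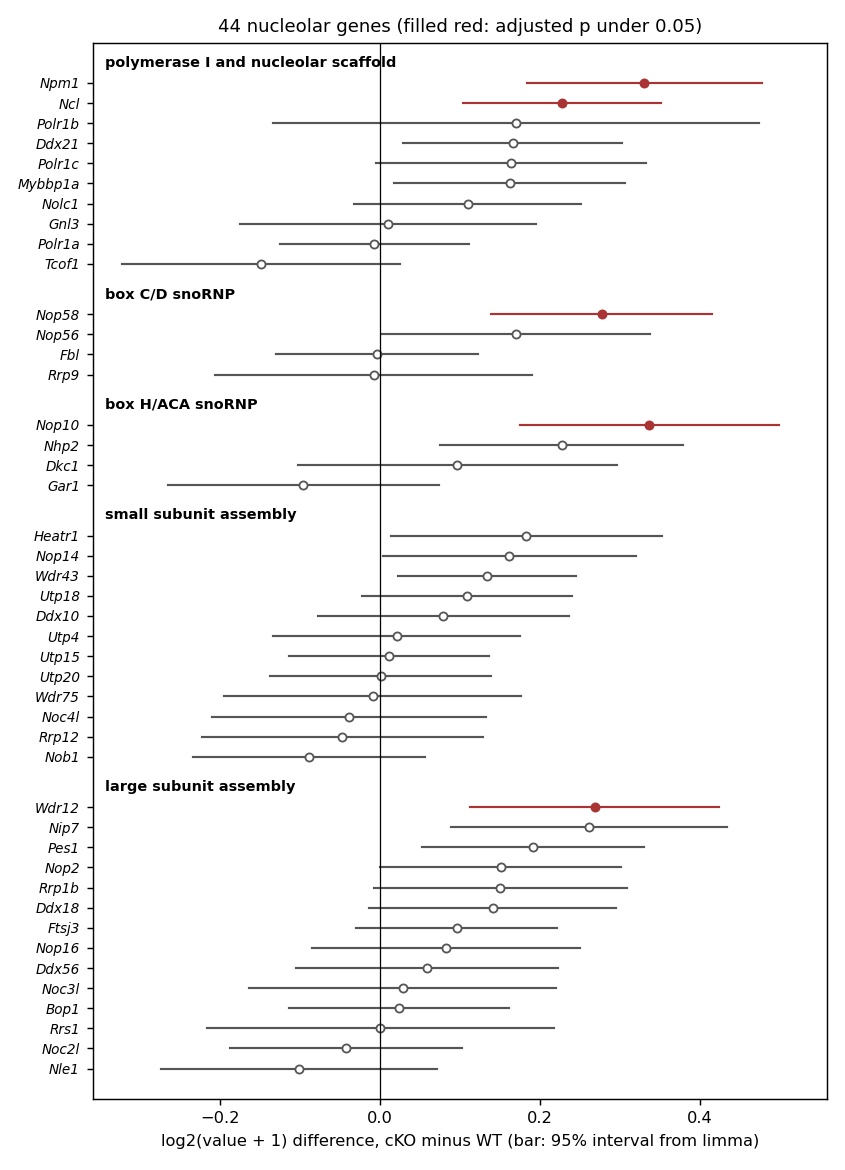
Log2(value + 1) difference between cKO and WT for each of the 44 genes, arranged by role; the point is the estimate and the bar the 95% interval from limma, filled red for the 5 genes past the threshold. The intervals of Npm1, Ncl, Nop58, Nop10 and Wdr12 lie above 0, and most of the others cross it.

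The mean level of the 44 genes was also taken per library, centred on the mean over the 6 libraries. For WT replicates 1, 2 and 3 it was -0.072, 0.016 and -0.081 on the log2 scale. For the cKO replicates, in the same order, it was 0.14, 0.0081 and -0.0081. WT replicate 2 therefore lay above cKO replicates 2 and 3, and the groups overlapped. The highest of the 6 values fell in cKO replicate 1 for 32 of the 44 genes, and the lowest never fell there. Without that library the median difference was 0.039 and 2 genes were called, Nop10 and Npm1. Of the 33 genes with a difference above 0, 9 then fell below it, and none turned the other way. Without WT replicate 1 only Npm1 was called, without cKO replicate 3 only Nop10, and without WT replicate 3 the count was 0. In the 6 fits of this kind the differences ran from 0.28 to 0.37 for Npm1 and 0.20 to 0.26 for Ncl. They ran from 0.22 to 0.31 for Nop58, 0.28 to 0.39 for Nop10 and 0.21 to 0.32 for Wdr12. The groups did not overlap for these 5 genes, so leaving out a library could not turn the sign, which adds no support. Over all genes the same fits, which have fewer libraries, called 247 to 787 higher, against 755 with all 6.

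**Figure D2:**
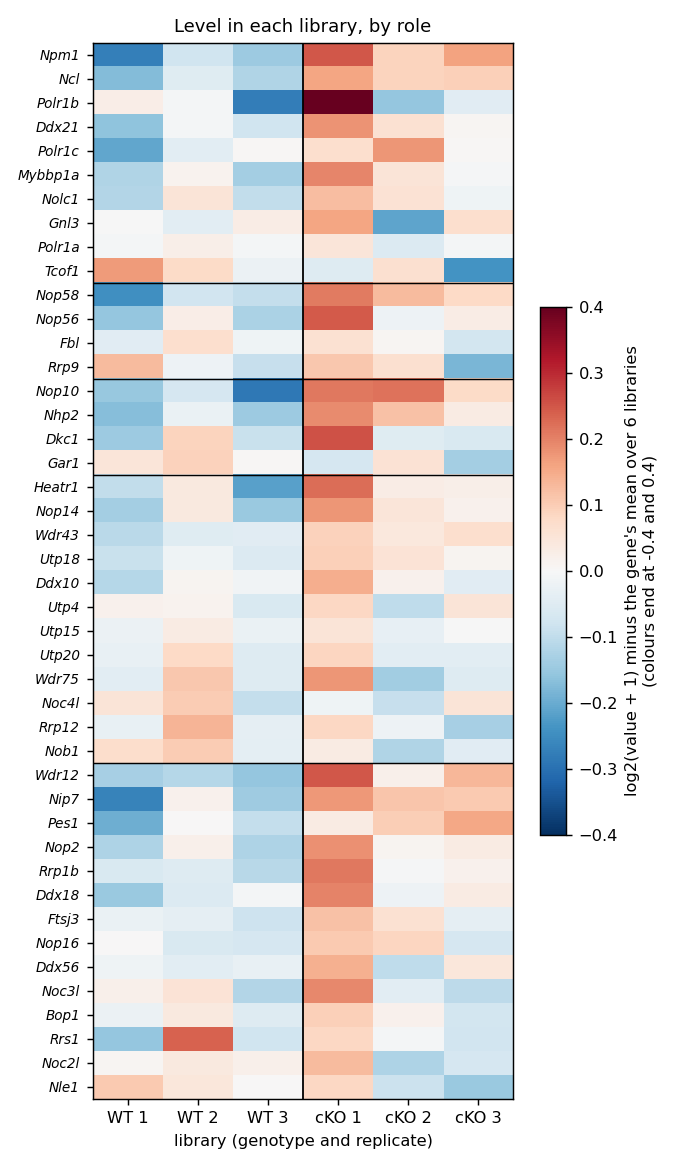
Level of each of the 44 genes (rows, by role) in each library (columns), as log2(value + 1) minus the mean of that gene over the 6 libraries. The column of cKO replicate 1 is the reddest, with the highest value for 32 genes, and WT replicates 1 and 3 are mostly blue.

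**Figure D3:**
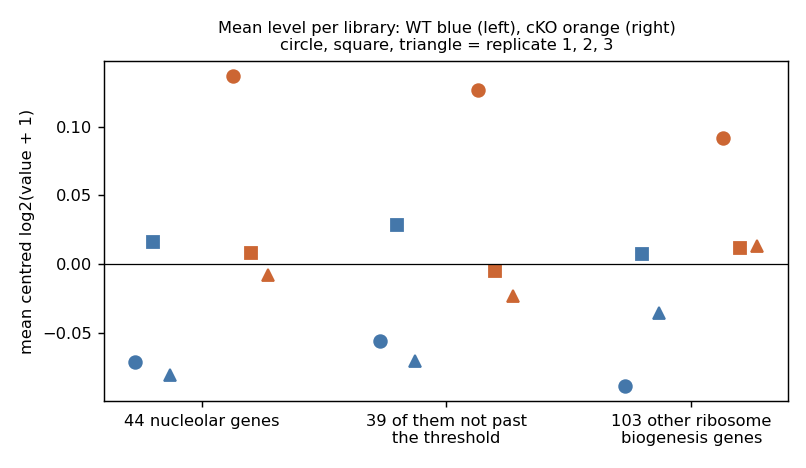
Mean centred log2(value + 1) per library over the 44 genes, over the 39 of them that were not called, and over 103 other ribosome biogenesis genes; WT is blue and cKO orange, with a shape for each replicate number. In the set of 44 genes cKO replicate 1 is at 0.14 and WT replicate 2 at 0.016, above the other cKO libraries.

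Among RNA polymerase I subunits and nucleolar scaffold proteins, 2 of 10 genes rose and 0 fell, with a median difference of 0.16. Ncl (ENSMUSG00000026234) encodes nucleolin, an abundant RNA-binding protein of the nucleolus. Its values, in the order of the replicate numbers as in all sentences below, were 14480, 15787 and 15030 normalised reads in WT and 18209, 17389 and 17435 in cKO. Each cKO library was above each WT library, and the difference was 0.23 ± 0.056 (standard error; adjusted p = 0.0296 by limma), a change of 17.1% with a 95% interval of 7.48% to 27.6%. Npm1 (ENSMUSG00000057113) encodes nucleophosmin, which organises the outer granular part of the nucleolus and chaperones histones and ribosomal proteins. Its values were 12548, 14352 and 13692 in WT and 17980, 16102 and 16950 in cKO, again without overlap. The difference was 0.33 ± 0.067 (adjusted p = 0.0140 by limma), or 25.8% with an interval of 13.6% to 39.2%. Exact two-sided permutation tests gave p = 0.1 for both genes, the smallest that 3 against 3 libraries allow. The introns of Ncl, Nop56, Nop58 and Gnl3 hold small nucleolar RNAs on the same strand, whose reads may be counted with them in part. Npm1 and Ncl held 27.0% to 28.3% of the summed reads of the 44 genes in WT and 29.9% to 31.0% in cKO, which restates the results of these 2 genes.

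The other 8 genes of that role did not pass. Ddx21, a helicase that couples polymerase I transcription to processing, gave 0.17 with no overlap between the groups (adjusted p = 0.118 by limma). Mybbp1a, a Myb-binding nucleolar protein, gave 0.16, and the polymerase I and III subunit gene Polr1c also gave 0.16. Nolc1 gave 0.11 with an interval of -0.033 to 0.25. The largest subunit gene, Polr1a, was nearly level at 2102, 2148 and 2101 in WT and 2185, 2035 and 2102 in cKO, a difference of -0.0072 with an interval of -0.13 to 0.11. The subunit gene Polr1b had the widest spread of the 44 genes, with 1310, 1279 and 1062 in WT and 1761, 1156 and 1247 in cKO. Its difference of 0.17 was -0.014 without cKO replicate 1. Gnl3, which encodes nucleostemin, gave 0.0094. Tcof1, which encodes the scaffold treacle, had the lowest difference, -0.15 with an interval of -0.32 to 0.024, from 4183, 3923 and 3660 in WT to 3591, 3889 and 3151 in cKO.

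**Figure D4:**
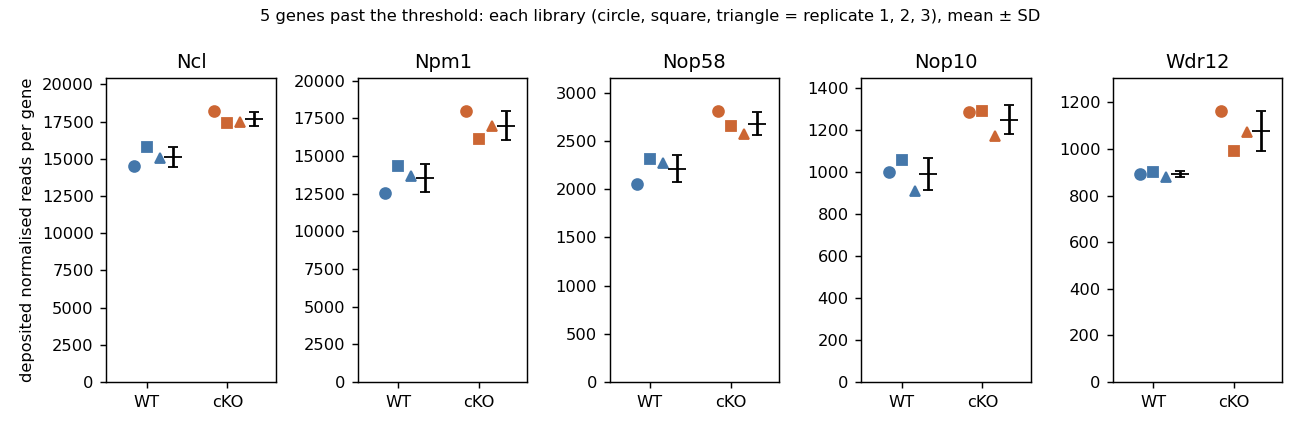
Deposited normalised reads of the 5 genes past the threshold in each library, with the mean and SD of each group (n = 3) in black; each axis starts at 0. For all 5 genes the cKO points lie above the WT points, with gaps that are small beside the level itself.

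Box C/D particles share core proteins across all guide RNAs, Nop56, Nop58 and fibrillarin among them, and 1 of the 4 box C/D genes here rose. Nop58 (ENSMUSG00000026020), a core scaffold protein, stood at 2053, 2308 and 2276 in WT and 2812, 2657 and 2570 in cKO. The groups did not overlap, and the difference was 0.28 ± 0.063 (adjusted p = 0.0224 by limma), or 21.2%. Nop56, its partner on the particle and the most abundant of the 4 by read count, had 3557, 4029 and 3623 in WT and 4692, 3899 and 4042 in cKO. WT replicate 2 lay above cKO replicate 2, and the difference of 0.17 ± 0.076 did not pass (adjusted p = 0.182). Fbl encodes fibrillarin, the methyltransferase of the particle. It gave 2701, 2917 and 2756 in WT and 2904, 2801 and 2647 in cKO, a difference of -0.0040 whose interval ran from -8.66% to 8.87%. Rrp9, a protein particular to the U3 particle, gave -0.0083, with an interval of -0.21 to 0.19.

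Box H/ACA particles carry 4 core proteins, and here 1 of 4 genes rose. Nop10 (ENSMUSG00000027133), the smallest of the core proteins, stood at 999, 1058 and 910 in WT and 1285, 1290 and 1170 in cKO. The groups did not overlap, and the difference was 0.34 ± 0.074 (adjusted p = 0.0196 by limma), or 26.3% with an interval of 12.9% to 41.3%. Nhp2, another core protein, had 899, 993 and 916 in WT and 1154, 1097 and 1036 in cKO. Its groups did not overlap either, but the difference of 0.23 ± 0.069 did not pass (adjusted p = 0.0607). Dkc1 encodes dyskerin, the pseudouridine synthase, and had 1818, 2137 and 1890 in WT and 2397, 1944 and 1927 in cKO. WT replicate 2 was above both lower cKO libraries, and the difference was 0.096 with an interval of -0.10 to 0.30. Gar1, the remaining core protein, went the other way at 632, 652 and 614 in WT and 585, 637 and 557 in cKO, a difference of -0.096 with an interval of -0.27 to 0.073.

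Upstream sequence was read for the same genes. RefSeq promoters of build GRCm38.p6 were matched by symbol for 38 of the 44 genes, and the 250 bases before each start were searched on both strands. The letters CACGTG (a palindrome known as a binding site of Myc) were found for 2 of 38 genes or 5.26%, Nop2 and Utp18, against 9.77% of the 9957 tested genes with a promoter. The letters CCGGAAG (a site of ETS factors) were found for 10 of 38 or 26.3%, against 16.1%, and a longer palindrome known from housekeeping promoters for 0 of 38, against 0.964%. A gene with several starts was counted if any of its windows held the motif. Several starts were present for 3 of the 38 genes and for 1997 of the 9957, so the shares compare unlike amounts of sequence. The 4 called genes with a promoter in the table (Ncl, Nop10, Nop58 and Wdr12) held none of these 3 motifs in this window, while Gar1 and Nhp2 held CCGGAAG or its reverse complement. The motifs do not overlap each other in the sequences below. The windows of the box H/ACA genes Nop10 (chr2:112261676-112261925, plus strand), Nhp2 (chr11:51619523-51619772, plus strand) and Gar1 (chr3:129831397-129831646, minus strand) and of Nop58 (chr1:59684756-59685005, plus strand) are given 5′ to 3′ on the strand of the gene, with motif letters in capitals. The first 3 show members of 1 particle, called and not called, and Nop58 is the called gene of the other particle.
Nop10: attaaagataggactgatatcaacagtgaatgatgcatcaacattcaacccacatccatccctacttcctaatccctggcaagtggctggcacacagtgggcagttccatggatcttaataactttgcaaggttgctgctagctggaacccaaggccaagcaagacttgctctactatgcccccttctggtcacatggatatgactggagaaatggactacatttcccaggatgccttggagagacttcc
Nhp2: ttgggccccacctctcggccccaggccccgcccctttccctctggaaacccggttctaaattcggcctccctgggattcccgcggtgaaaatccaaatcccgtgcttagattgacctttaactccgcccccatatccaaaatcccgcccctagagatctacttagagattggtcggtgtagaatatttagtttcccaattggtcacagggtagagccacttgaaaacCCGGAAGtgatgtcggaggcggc
Gar1: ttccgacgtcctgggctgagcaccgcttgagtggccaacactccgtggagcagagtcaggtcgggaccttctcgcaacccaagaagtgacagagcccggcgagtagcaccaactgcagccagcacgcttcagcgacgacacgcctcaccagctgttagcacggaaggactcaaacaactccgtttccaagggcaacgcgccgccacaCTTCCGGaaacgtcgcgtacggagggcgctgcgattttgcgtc
Nop58: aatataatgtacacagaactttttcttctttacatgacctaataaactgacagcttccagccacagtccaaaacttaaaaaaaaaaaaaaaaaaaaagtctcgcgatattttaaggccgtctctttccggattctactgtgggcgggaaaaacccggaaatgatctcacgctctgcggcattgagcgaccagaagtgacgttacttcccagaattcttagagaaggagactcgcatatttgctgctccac
In these windows the CCGGAAG match begins 23 bases before the start in Nhp2 and the reverse complement begins 43 bases before it in Gar1. A match is a string of letters and no evidence that a factor binds there.

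Ratios between partners within a library do not depend on how the libraries were scaled, so 7 pairs were compared, chosen after the values had been seen. The ratio of Nop10 to Gar1 was 1.58, 1.62 and 1.48 in WT and 2.19, 2.02 and 2.10 in cKO, a log2 difference of 0.43 between the groups. The ratio of Nhp2 to Gar1 was 1.42, 1.52 and 1.49 in WT and 1.97, 1.72 and 1.86 in cKO, a difference of 0.32. The ratio of Nop58 to Fbl was 0.760, 0.791 and 0.826 in WT and 0.968, 0.949 and 0.971 in cKO, a difference of 0.28. In these 3 pairs the groups did not overlap. The same held for Wdr12 to Bop1 and Npm1 to Ncl, with differences of 0.24 and 0.10. It did not hold for Nop58 to Nop56 (0.11) or Pes1 to Bop1 (0.17). Exact permutation tests gave p = 0.1 for the 5 pairs without overlap (0.14 after Benjamini-Hochberg adjustment over the 7). They gave 0.2 for Nop58 to Nop56 and 0.3 for Pes1 to Bop1. With 3 against 3 libraries this test cannot give less than 0.1. The adjustment does not cover the choice of the pairs. Nop10, Nop58 and Wdr12 were already called higher and Gar1, Fbl and Bop1 were not, so those ratios in part restate the results of single genes.

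**Figure D5:**
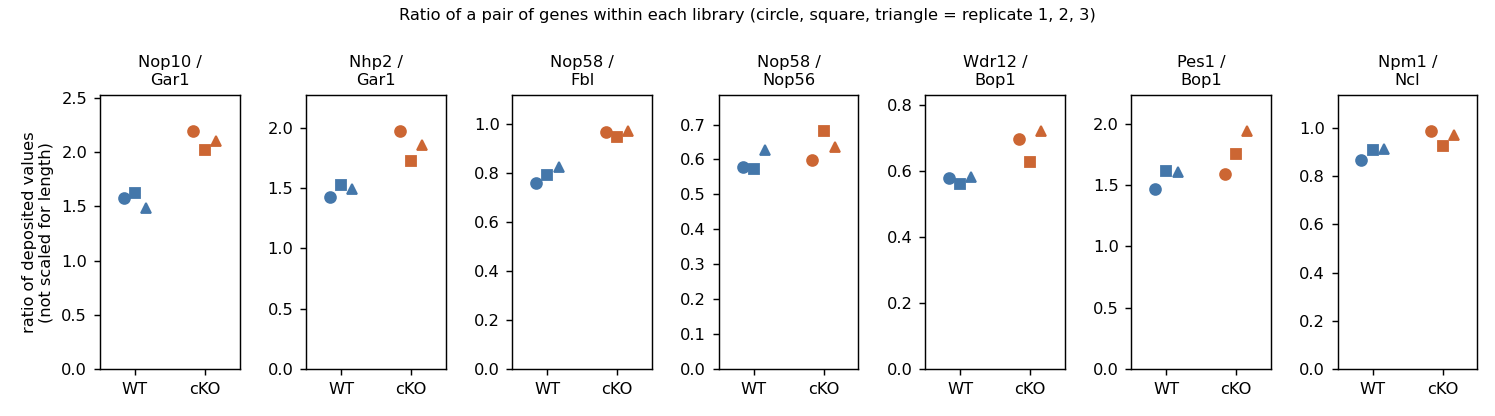
Ratio of the deposited values of 7 pairs of genes in each library, not scaled for transcript length; each axis starts at 0. The ratio of Nop10 to Gar1 lies between 1.48 and 1.62 in WT and between 2.02 and 2.19 in cKO.

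None of the 12 small subunit genes passed by limma in either direction, and 3 had an unadjusted p under 0.05. DESeq2 and edgeR on the recovered reads also called 0 of them. Wdr43, a component of the complex that loads first on the nascent precursor and the most abundant of the 12 by read count, had 2716, 2833 and 2835 in WT and 3121, 3011 and 3068 in cKO. Its groups did not overlap, but the difference was small, 0.13 ± 0.051 (adjusted p = 0.120). Of the other members of that early complex, Heatr1 gave 0.18, Utp4 0.021, Utp15 0.011 and Wdr75 -0.0095. Among processome proteins that join with or after it, Nop14 gave 0.16, Utp18 0.11, the helicase gene Ddx10 0.079, Utp20 0.00075 and Noc4l -0.039. The late export and maturation factor gene Rrp12 gave -0.047, and Nob1, the nuclease that makes the final cut of the small subunit RNA, gave -0.089. The median of the 12 was 0.016, which is 1.11%. Their 95% intervals were 0.31 wide at the median, so changes of this size could not be told from 0.

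Of 14 large subunit genes 1 rose and 0 fell. Wdr12 (ENSMUSG00000026019) belongs with Pes1 and Bop1 to a trimer that large subunit RNA processing needs. It stood at 893, 903 and 878 in WT, a narrow range, and at 1163, 993 and 1072 in cKO. The groups did not overlap, and the difference was 0.27 ± 0.071 (adjusted p = 0.0388 by limma), or 20.5%. Without a stated strand setting, reads of the overlapping gene Carf on the other strand cannot be told apart, though the shared exonic stretch is 61 bases and Carf averaged 296 normalised reads. The partner genes were not called. Pes1 gave 0.19 (adjusted p = 0.0810), with 2263, 2595 and 2427 in WT and 2652, 2776 and 2882 in cKO, and Bop1 gave 0.024 with an interval of -0.11 to 0.16.

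Nip7, which acts in late nucleolar processing, came nearest to the threshold among the remaining genes, with 757, 921 and 826 in WT and 1028, 984 and 980 in cKO (0.26 ± 0.079, adjusted p = 0.0587). Its groups did not overlap. Noc2l had the highest read count of the 14, at 3589, 3666 and 3622 in WT and 3898, 3279 and 3411 in cKO, and its difference was -0.043 with the groups interleaved. The RNA methyltransferase genes Nop2 and Ftsj3 gave 0.15 and 0.096, the helicase genes Ddx18 and Ddx56 0.14 and 0.059, and Rrp1b 0.15. Nop16, Noc3l and Rrs1 gave 0.083, 0.028 and 0.00021, and Nle1 gave -0.10. Just inside the threshold of 0.05 stood Wdr12 at 0.0388, and just outside it stood Nip7 at 0.0587 and Nhp2 at 0.0607.

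Levels differed far more between the genes than between the genotypes. Per kilobase of coding sequence, Npm1 led with 15446 ± 1042 normalised reads in WT (SD, n = 3), followed by Ncl with 7119 ± 309 and Nop10 with 5151 ± 389. Fbl came next with 2845 ± 114 and then Ddx21 with 2290 ± 122, which was within the combined spread of Nop56 at 2147 ± 147. The lowest were Rrp12 with 215 ± 15.0 and Utp20 with 201 ± 9.76, which differed by less than their combined spread. The order of these leading genes by mean was the same in cKO, where Npm1 reached 19419 ± 1074, Ncl 8335 ± 217, Nop10 6501 ± 352, Fbl 2838 ± 132 and Ddx21 2570 ± 158, again within the combined spread of Nop56 at 2420 ± 243. Coding length ignores untranslated ends, which also collect reads. Nop10 has the shortest coding sequence of the 44 genes, 0.192 kilobases, and its place above Fbl depends on this division. By read count its mean in WT was 989, against 2791 for Fbl. The spread between libraries of a group, as SD over mean, had a median over the 44 genes of 5.33% in WT and 6.26% in cKO, and reached 23.5% for Polr1b in cKO.

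For context, a list of 103 other ribosome biogenesis genes was read from the same fit. Of these, 5 rose and 0 fell, which is 4.85% beside 5.08% of all genes called higher. An unadjusted p under 0.05 by limma was reached by 22, 21 of them higher. Of all 14855 genes tested it was reached by 3983, 2007 of them higher. A difference above 0 was found for 82, with a median of 0.078. The lowest was Mdn1 at -0.24 (adjusted p = 0.0507 by limma), just outside the threshold. The highest was Nsa2, a large subunit assembly factor, which rose from 3117, 3507 and 3424 in WT to 4124, 4232 and 4144 in cKO (0.32 ± 0.057, adjusted p = 0.00877 by limma). Ddx24, a nucleolar helicase, rose from 2914, 3013 and 3037 to 3777, 3625 and 3608 (0.30 ± 0.051, adjusted p = 0.00676). These 2 genes were called in every alternative fit run here. Polr1d, a subunit of polymerases I and III, rose by 0.26 on the log2 scale (adjusted p = 0.0174), Nop9 by 0.28 (0.0374) and Utp3 by 0.22 (0.0494). Polr1d lost its call without WT replicate 1 or cKO replicate 3, Nop9 without each library other than WT replicate 2, and Utp3 without each library other than WT replicate 2, under DESeq2 and with immunoglobulin genes left out of the scaling.

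Myc, whose product is known to drive transcription of ribosome biogenesis genes, moved the other way. It stood at 13323, 11568 and 14087 in WT and 10666, 7501 and 10573 in cKO, and fell by 0.45 on the log2 scale (adjusted p = 0.0428 by limma). Its call was lost without WT replicate 1, WT replicate 3 or cKO replicate 3, with DESeq2 and under robust moderation (adjusted p of up to 0.150). Whether the levels of Myc and of these genes are linked was not tested.

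In bulk RNA, more cells of a type and more RNA per cell cannot be told apart, so the marker lists are given beside these results as summed normalised reads. General B cell markers (6 genes) summed to 165187 to 176643 in WT and 169006 to 174110 in cKO. Marginal zone markers (12 genes), Cr2 and Cd1d1 among them, summed to 142714 to 152002 and 145510 to 178310. Follicular B cell markers (7 genes) gave 43389 to 47908 and 37496 to 44784, and plasma cell markers (7 of 8 analysed) 9494 to 13943 and 7572 to 9157. Of other cell types, T cell markers (3 of 10 analysed) gave 627 to 723 and 321 to 462, natural killer cell markers (4 of 6) 279 to 324 and 290 to 406, and myeloid markers (12) 1667 to 2574 and 1547 to 2485. Erythroid markers (8) gave 710 to 11405 and 865 to 5372. Both the erythroid and the myeloid markers were highest in WT replicate 2 within WT and in cKO replicate 1 within cKO. In these libraries of each group the mean of the 44 genes was also highest. Proliferation genes (15) gave 11944 to 13159 and 11245 to 15019, with the lowest value in cKO replicate 1. By limma 0 of them were called and 3 had an unadjusted p under 0.05, while 13 of 15 had a difference above 0, with a median of 0.17. Immediate early genes (14) gave 75217 to 94439 and 61628 to 63686, and 7 of the 14 fell. Of the other lists, 5 of 12 marginal zone markers rose and 1 fell, 3 of 7 follicular markers fell, and 1 of 7 plasma cell and 1 of 3 T cell markers fell. The B cell, natural killer cell, myeloid and erythroid lists had 0 called by limma, with 3, 1, 3 and 0 genes at an unadjusted p under 0.05. That level was reached by 8 marginal zone, 4 follicular, 2 plasma cell, 3 T cell and 10 immediate early genes. Across all genes tested 5.08% were called higher and 4.97% lower, and 3983 of 14855 reached an unadjusted p under 0.05. Each gene of the deposited table had at least 61 reads over the 6 libraries, so an analysed marker could not be at 0 in all of them. The part of these marker lists in the results was not tested.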

How the data were processed

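RNA of flow-sorted splenic marginal zone B cells was sequenced, 3 WT and 3 cKO libraries. The submitters' processing notes list STAR 2.5.2b, Trimmomatic 0.36 and bcl2fastq 2.17, and the build mm9. The counter, annotation and strand setting were not given in the sources used here. What the authors deposited is a normalised signal for every gene, which from the values is read counts divided by 1 factor per library. Every value was a whole multiple of 1 read, within 0.02 of a read, for 100% of values in each library. The smallest value of cKO replicate 1 stood for 2 reads, and each of the 44 genes had at least 540 reads per library. The scale matched size factors of DESeq2 1.42.0, with ratios of 1.00 in each library.

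The test was limma 3.58.1 (R 4.3.3; lmFit, eBayes with trend) on log2(value + 1) for genes with a mean of at least 10, two-sided, genotype only, with Benjamini-Hochberg adjustment over all 14855 genes and a threshold of 0.05. It was tested on simulated data, in which the changed genes had larger log2 changes than any of the 44 genes. Alternatives were other pseudocounts, filters and scalings, robust moderation, edgeR 4.0.16 and DESeq2 on the recovered reads, a replicate block, and leaving out each library. The 44 genes and the gene lists were chosen with earlier results of these data known. All 44 genes are named, with values per library for those past the threshold and for the leading member of each role. Such values are also given for others near the threshold or within the same complexes, and for Polr1a, Polr1b and Tcof1. These further genes were chosen after their values were seen. Other ribosome biogenesis genes are named where called, and Mdn1 as the lowest of them. The choice to test pairs of genes and to search 2 of the 3 motifs was made after seeing the data. Exons of 16 of the 44 genes overlap those of a gene on the other strand in GENCODE M21, so their counts are uncertain to that extent.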

Additional observations from a re-analysis of the deposited data

How the results depend on the processing

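All 10 alternatives that kept the 6 libraries called the same 5 genes, and robust moderation called Nip7 as well. The count of called genes varied with the libraries kept. Leaving out each library in turn gave 0 to 5 of the 44 genes higher and 0 lower, 247 to 787 of all genes higher and 221 to 943 lower, and 2 to 6 of the 103 other ribosome biogenesis genes higher and 0 to 1 lower. None of the 5 genes was called in all 6 of those fits, which have fewer libraries. Their lowest differences were 0.28 for Npm1, 0.20 for Ncl, 0.22 for Nop58, 0.28 for Nop10 and 0.21 for Wdr12. A sign above 0 was fixed by the lack of overlap between the groups. Adjusted p reached 0.0566 for Npm1 (without cKO replicate 3), 0.0831 for Nop10 and 0.106 for Ncl and 0.120 for Wdr12 (all without WT replicate 3), and 0.0783 for Nop58 (without WT replicate 1). The median over the 44 genes ranged from 0.039 to 0.14 in those fits, and that over the 103 genes from 0.054 to 0.096. Of the 103 genes, 1 was called lower with a minimum mean of 100, with immunoglobulin genes left out of the scaling, under robust moderation, with DESeq2 and with the replicate block. The cause was not tested.

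Directions turned for 16 genes under at least 1 alternative, none of them past the threshold. With immunoglobulin genes left out of the scaling, Gnl3 (-0.0052), Utp15 (-0.0036), Utp20 (-0.014) and Rrs1 (-0.014) turned below 0. With edgeR, Fbl (0.0013), Rrp9 (0.0010) and Wdr75 (0.00027) turned above 0 and Rrs1 (-0.0031) below it, as Rrs1 did with DESeq2 (-0.0078). Leaving out a library turned the sign within these ranges: Rrp9 (-0.065 to 0.081), Utp20 (-0.042 to 0.040), Rrs1 (-0.077 to 0.12), Polr1a (-0.034 to 0.018), Gnl3 (-0.067 to 0.12), Fbl (-0.035 to 0.032), Wdr75 (-0.10 to 0.057), Noc4l (-0.096 to 0.0021), Rrp12 (-0.10 to 0.0094), Utp4 (-0.015 to 0.077), Noc3l (-0.060 to 0.088), Polr1b (-0.014 to 0.29), Dkc1 (-0.0066 to 0.16), Utp15 (-0.012 to 0.030), Bop1 (-0.017 to 0.067) and Noc2l (-0.12 to 0.0084). Deviations from the group means correlated across genes by 0.010, -0.034 and 0.34 for replicates 1, 2 and 3 of both groups, so of these only the last pair deviated together. Between unlike numbers the correlations ran from -0.32 (WT replicate 3 with cKO replicate 1) to 0.27 (WT replicate 2 with cKO replicate 1). The numbers were not taken to pair the libraries, and not every library correlated best with its own number. With the replicate block the called genes were the same 5 and 767 of all genes were called higher and 784 lower, against 755 and 739 without it.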

Other observations

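A list of Gas5 and Snhg genes, which host small nucleolar RNAs in their introns, was read from the same fit. Such genes supply guide RNAs of the particles described above. The list leaves out Ncl, Nop56, Nop58 and Gnl3, hosts among the 44 genes, of which Ncl and Nop58 rose. Of 13 listed, 10 were analysed. Of these, 2 fell and 0 rose by limma, beside 4.97% of all genes tested called lower. An unadjusted p under 0.05 by limma was reached by 3, all of them lower. Of all 14855 genes tested it was reached by 3983 in either direction. The median log2 difference of the 10 was -0.0019. Snhg1 stood at 2375, 2381 and 2295 normalised reads in WT and 2080, 1725 and 1787 in cKO, and fell by 0.34 ± 0.072 on the log2 scale (adjusted p = 0.0170). The call was lost without WT replicate 1, WT replicate 3 or cKO replicate 3 (up to 0.0695). Snhg8 stood at 1049, 1139 and 1225 in WT and 891, 1005 and 921 in cKO, and fell by 0.27 (adjusted p = 0.0454), a call lost without each library other than cKO replicate 2 (up to 0.165). Gas5, with the highest read count of this list, gave 6821, 7313 and 7104 in WT and 7523, 6394 and 6933 in cKO, a difference of -0.029 (adjusted p = 0.819). Whether the listed host genes differ from the genes of the particle proteins was not tested.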
